A study of Mus musculus with 16 samples.

Results

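Of the 127646 accessible regions in a table of chromatin accessibility in mouse embryonic stem cells, 16101 (12.6%) had their centre more than 100000 bp from the centre of the nearest transcription start site window on the same autosome. They were taken from all autosomes, and their position alone chose them. The assay was ATAC-seq, which reads open chromatin from the places where a transposase could cut DNA and add adaptors. The cells carried the genotype label FOXD3-iKO and grew in L2i medium. Cells given tamoxifen (4HT), which per the labels induces loss of FOXD3, a forkhead protein of stem cells and the neural crest, were compared with cells of the same genotype given ethanol (EtOH). Treatment lasted 24 h, and cells were sorted on DNA content, stained with DAPI, into 4 fractions, G1, ES, LS, G2, in which order the values of fractions are given below. The labels do not spell out ES or LS, and the line, the driver of the recombinase and the number of clones are not given in the sources used here. All groups carry the same inducible genotype, and no group used here had 4HT without it. Each of the 8 groups comprised 2 libraries and stands in the table as 1 pooled column, so no value below has a replicate SD.

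Accessible regions far from promoters include enhancers, insulators bound by CTCF, and start sites that an annotation does not list. Enhancers act over long distances by contact with promoters, and stretches with few genes around developmental regulators often hold many of them. In embryonic stem cells, distal enhancers bound by OCT4, SOX2, ESRRB and KLF proteins keep the naive state, and chromatin in gene-poor stretches tends to be compact and to replicate late in S phase.

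The name gene desert held for part of these regions. By the RefSeq annotation of GRCm38.p6 (the assembly of build mm10), 8623 (53.6%) overlapped no gene, whereas 5978 (37.1%) lay inside the body of a protein-coding gene, 1376 (8.55%) inside a long non-coding RNA gene and 124 (0.770%) inside another kind of gene. Many thus sat deep in long genes. The regions are therefore called distal regions below. Their distance from the nearest window centre had a median of 164855 bp and reached 1160580 bp, and they were 112 to 2190 bp wide, with a median of 230 bp. Over the 614 Mb of autosomes beyond the limit there were 26.2 regions per Mb, against 50.03 per Mb over the 1263 Mb that lie 10 to 100 kb from a window. The 10 regions just inside the limit had a median level of 0.958 (0.549 to 2.43) and the 10 just outside 0.861 (0.313 to 1.20), in the unit explained below.

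A small number of distal regions lay on an annotated start. RefSeq promoters, from 250 bp before to 50 bp after a start, were overlapped by 186 distal regions (1.16%), at 201 starts of 173 genes, of which 52 code for protein and 121 are long non-coding RNAs. Promoter sequences were available for 18 of the 19 autosomes. Shown here are 5 of the 8 with the highest levels, to set promoters with many CpG dinucleotides beside some with few; Gm38646, with only 1, is not shown. All are from RefSeq (GRCm38.p6), 5′ to 3′ on the gene's strand, with CpG dinucleotides in capitals. Gm40881 is at chr12:20311963-20312262 (+), Zfp996, a zinc finger protein gene, at chr12:18387241-18387540 (+), and Nrxn3, which encodes a presynaptic neurexin, at chr12:89812233-89812532 (+). Kcnq1ot1, the imprinted long non-coding RNA of the Kcnq1 domain, is at chr7:143296498-143296797 (−), and Dab2ip, which encodes a Ras GTPase-activating protein, at chr2:35691744-35692043 (+).
Gm40881: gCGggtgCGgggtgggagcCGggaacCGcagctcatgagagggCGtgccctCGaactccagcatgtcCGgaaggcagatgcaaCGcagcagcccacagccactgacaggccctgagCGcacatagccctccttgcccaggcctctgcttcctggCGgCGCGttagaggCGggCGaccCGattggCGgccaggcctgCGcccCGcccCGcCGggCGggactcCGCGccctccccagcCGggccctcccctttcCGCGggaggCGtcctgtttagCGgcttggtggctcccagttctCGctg
Zfp996: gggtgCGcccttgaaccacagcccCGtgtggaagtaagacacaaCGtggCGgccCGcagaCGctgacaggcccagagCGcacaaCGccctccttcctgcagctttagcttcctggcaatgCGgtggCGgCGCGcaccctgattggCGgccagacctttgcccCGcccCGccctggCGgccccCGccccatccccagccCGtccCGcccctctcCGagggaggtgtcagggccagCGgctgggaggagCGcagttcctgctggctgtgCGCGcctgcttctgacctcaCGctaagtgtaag
Nrxn3: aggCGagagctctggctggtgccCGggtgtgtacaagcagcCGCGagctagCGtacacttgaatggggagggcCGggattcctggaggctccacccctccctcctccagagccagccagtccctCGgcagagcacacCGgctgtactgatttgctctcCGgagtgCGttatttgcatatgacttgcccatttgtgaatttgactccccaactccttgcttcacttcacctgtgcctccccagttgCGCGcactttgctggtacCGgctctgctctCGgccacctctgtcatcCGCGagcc
Kcnq1ot1: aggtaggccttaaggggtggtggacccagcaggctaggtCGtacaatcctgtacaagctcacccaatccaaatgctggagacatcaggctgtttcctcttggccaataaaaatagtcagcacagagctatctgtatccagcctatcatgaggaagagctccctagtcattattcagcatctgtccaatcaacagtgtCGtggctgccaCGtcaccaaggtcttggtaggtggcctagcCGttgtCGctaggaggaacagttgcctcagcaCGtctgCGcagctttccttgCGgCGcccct
Dab2ip: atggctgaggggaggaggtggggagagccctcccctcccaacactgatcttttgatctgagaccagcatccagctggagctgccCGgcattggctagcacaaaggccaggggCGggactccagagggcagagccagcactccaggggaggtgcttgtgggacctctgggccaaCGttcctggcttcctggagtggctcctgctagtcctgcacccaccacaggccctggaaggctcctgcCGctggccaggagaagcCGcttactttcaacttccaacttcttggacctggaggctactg

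These promoters differed in base composition. The Gm40881 promoter held 29 CpG dinucleotides at 72.0% G+C and that of Zfp996 held 25 at 69.3%. The internal Nrxn3 promoter held 16 at 60.7%. Those of Kcnq1ot1 and Dab2ip held 9 at 53.3% and 5 at 62.3%. Over the 201 overlapped promoters the median G+C was 50.7%, against 52.7% over all 32851 promoters of the same length. The region on the Gm40881 start had a level of 5.41, that on Kcnq1ot1 3.77, on Dab2ip 3.38, on Zfp996 3.19 and on Nrxn3 2.17. The Gm40881 promoter matched 5 other promoters of the table at 70% identity or more, none at 90%, with Gm3973 the nearest at 86.3%. Zfp996 matched 1 other, Gm21297, at 71.0%. Reads from such related sequences may be shared, so the levels at these 2 starts are uncertain.

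Short motifs were counted in the overlapped promoters on both strands. None of the strings contains another. The octamer ATGCAAAT, bound by OCT4, was in 10 of 201 (4.98%) against 1.74% of all promoters, and the SOX core ATTGTT in 14.9% against 10.7%. The forkhead strings TGTTTAC and TGTTTGC, a kind of site that forkhead proteins such as FOXD3 bind, were in 13.4% against 8.48%. The ESRRB string TCAAGGTCA was in 0.995% against 0.423%, the KLF string GGGTGTGG in 2.99% against 3.56% and the AP-1 string TGANTCA in 11.4% against 7.81%. The CTCF parts AGNGGGCGC and AGNTGGCAG were in 4.98% against 5.38%. A match is a string of letters and not a bound site. The 201 starts belong to 173 genes and some of their promoters overlap, so 1 site can count more than once. Their lower median G+C (50.7% against 52.7%) was not allowed for, and the shares were not tested. The sequences of the distal regions away from annotated starts were not analysed here.

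In each column the smallest signal was shared by many regions and was taken as the worth of 1 read. A level below is the signal as a multiple of that value, with 0 for a column without a read, averaged over the 8 columns. This implies a depth of 6.78, 9.75, 11.1 and 8.87 M reads for the 4HT columns and 9.96, 8.38, 8.17 and 11.2 M reads for the EtOH columns (M, 1e6). A multiple grows with the depth of its column, and shares of regions with a read follow depth too. Values of a region in single columns are therefore given as deposited signal, which is scaled to library size. As a check of the cell type, start site windows of 7 embryonic stem cell markers of 8 were found, with a median level of 2.26 (Esrrb 1.25 to Klf2 2.73), and 3 fibroblast markers of 8, with a median of 1.13 (1.11 to 1.15). The median of the 18669 named windows was 1.34, and no marker found was at 0. An open promoter is not expression, and the loss of FOXD3 was not measured by these tables.

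Distal regions were the weakest class. Their median level was 0.763 (interquartile range 0.503 to 1.06), against 0.939 for the 63226 autosomal regions 10 to 100 kb from a window, 1.098 for the 26595 at 1 to 10 kb and 1.51 for the 18522 within 1000 bp. Of the distal regions, 11344 (70.5%) had a level of at most 1 and 135 had no read in any column. A read in all 8 columns was found for 2388 (14.8%), against 23.8% at 10 to 100 kb and 64.75% within 1000 bp. The cumulative plot of levels shows the distal curve to the left of the other classes.

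**Figure D1:**
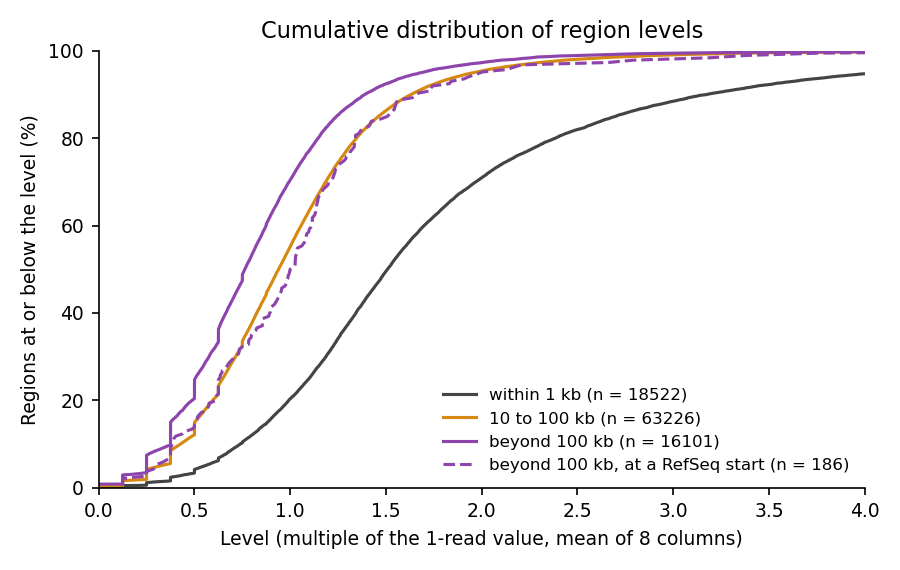
Cumulative share of regions (%) against level (multiple of the 1-read value, mean of 8 pooled columns), for regions within 1000 bp, 10 to 100 kb and beyond 100 kb of a window centre, and for the 186 distal regions on a RefSeq start (dashed). The distal curve reaches 70.5% at a level of 1, and the axis ends at 4, so the strongest regions are not shown.

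The share of distal regions with a read was 57.4, 63.1, 71.3 and 63.7% in the 4HT columns and 67.5, 58.9, 62.3 and 71.4% in the EtOH columns. Regions 10 to 100 kb from a window had 64.1, 73.8, 78.0 and 70.9% in 4HT and 75.4, 70.02, 70.1 and 77.2% in EtOH. The distal share was lower in 8 of 8 columns, with a mean difference of -7.99 percentage points (exact two-sided sign-flip permutation p 0.00781, the smallest that 8 columns allow; adjusted p 0.0117 over 3 comparisons). Against regions within 1000 bp the difference was -25.0 points, again in 8 of 8 columns (exact permutation p 0.00781, adjusted p 0.0117). Those regions were wider, with a median of 565 bp against 230 bp, and the 2 sets were not compared at like width. With more than 1 read as the criterion, the differences were -9.38 and -41.6 points. Since libraries were pooled, p-values here and below reflect how columns vary and not how cultures do.

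**Figure D2:**
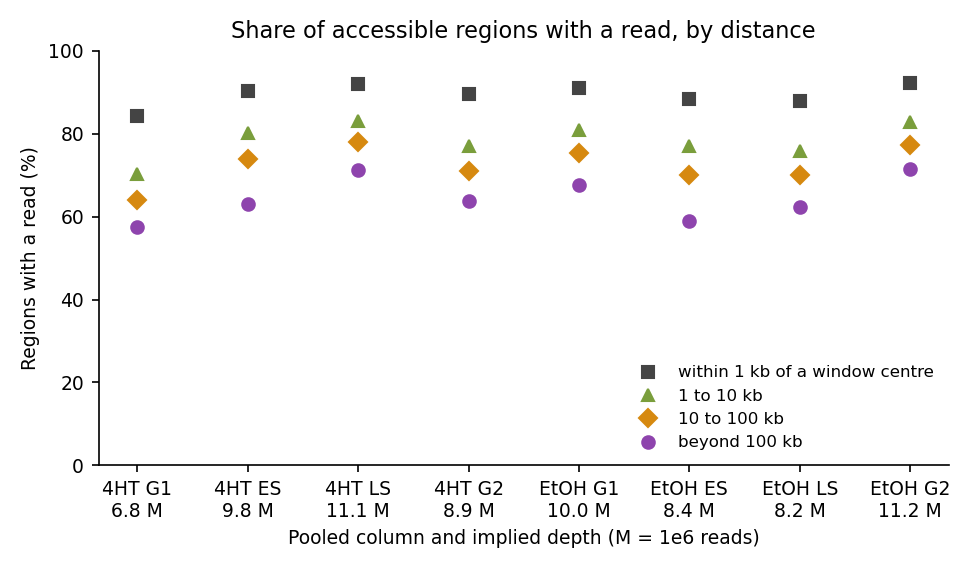
Share of regions with a read (%) in each of the 8 pooled columns, with the implied depth in M reads (1e6) under each name, for 4 classes of distance from a window centre. In every column the share drops with distance, and distal regions are lowest, between 57.4% and 71.4%.

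The difference from regions 10 to 100 kb away was present in each class of width. Distal regions of up to 200 bp had a median level of 0.593 against 0.732 at 10 to 100 kb, those of 200 to 400 bp 0.787 against 0.956, and wider ones 1.14 against 1.28. Beyond the limit, more distance made little further difference: the median was 0.789 for the 10233 regions at 100 to 200 kb, 0.731 for the 5229 at 200 to 500 kb and 0.750 for the 639 beyond 500 kb. Chromosomes differed in how many of their regions were distal, from 4.62% on chromosome 11 and 6.67% on chromosome 4 to 19.1% on chromosome 13 and 17.7% on chromosome 12.

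Position relative to genes went with differences in the share of distal regions with a read. Regions inside protein-coding genes had a read more often than regions in no gene, by 2.79 points (SD 0.984 over the 8 columns, higher in 8 of 8; exact sign-flip permutation p 0.00781, adjusted p 0.0117 over 3 comparisons), with median levels of 0.793 and 0.750. Regions on a RefSeq start had a read more often than the other distal regions, by 10.6 points (SD 1.46, higher in 8 of 8; exact permutation p 0.00781, adjusted p 0.0117). They were also wider, with 54.3% over 400 bp against 21.2%, and among regions over 400 bp the difference was 1.66 points, higher in 5 of 8 columns (exact permutation p 0.133). These comparisons were added after the values were seen.

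The strongest distal regions lay in a mixture of settings. The highest level was 7.09, at chr8:120337005-120337230 inside Gse1, and a second region of the same gene, at chr8:120334785-120335408, stood at 5.48. Next came 6.43 at chr12:19175604-19176295, 70.1 kb from the predicted gene LOC115488029, and 6.16 at chr8:39813673-39813836, 171 kb from Msr1, a scavenger receptor of macrophages. Ctnna3, which encodes a catenin of cell junctions, held a region of 5.98 at chr10:64744150-64744624. The region at chr12:86501563-86502238 inside Esrrb, an orphan nuclear receptor of naive pluripotency, stood at 5.77. A region 44.2 kb from 9530057J20Rik stood at 5.59, and that on the Gm40881 start was also among the 10 highest.

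Of the regions beyond 500 kb, 15.5% had a read in all columns, against 15.7% at 100 to 200 kb. The 5 farthest with a read in every column lay 848 to 925 kb away and had levels of 1.01 to 1.48. The farthest, at chr12:92816751-92817030, 66.7 kb from Gm40892, had 1, 1, 1 and 1.11 times the 1-read value in 4HT and 1 in each of the 4 EtOH columns.

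Distal regions were spread over many stretches between windows. Those with at least 1 distal region numbered 2125. Of these, 343 held a single one, the median was 5 and the most was 64. The 10 fullest held 3.08% of all distal regions, and most ran through long genes. The fullest was in Auts2, a regulator of neuronal development. The stretch in Pard3, a cell polarity gene, held 55 with a median level of 1.26 and 184.8 per Mb. The stretch between Dctd and Tenm3 held 50 with a median of 1.15. A stretch on chromosome 12 that begins 42.3 kb from Sel1l and contains Gm40892 also held 50. The others, by the nearest genes at their ends, were St6galnac5 to St6galnac3 (47), Tgfbr2 to Rbms3 (47), Atxn7l3b to Trhde (46), Insc to Sox6 (46), Arglu1 to Fam155a (46) and Rad51b to Zfp36l1 (45), and a stretch at Foxp1 tied with the last at 45.

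The nearest protein-coding gene was taken for each distal region, which says nothing about the gene it regulates. It was not taken for regions closer to windows. The share of distal regions on each list below thus has no background beside it and is a count, not an enrichment. Genes of neuronal adhesion and synapses were nearest to 1918 distal regions (11.9%), at 73 of 83 listed genes, with a median level of 0.750 and 13.9% read in all 8 columns. Among these, Tenm3, a teneurin, had 117, the cadherin gene Cdh8 77, the protocadherin gene Pcdh9 65 and the contactin gene Cntn5 64. The list of developmental transcription factors also holds the ligand genes Bmp2, Bmp7, Fgf8 and Fgf10 and the cofactor gene Lmo4. Its genes were nearest to 570 (3.54%), at 56 of 82 genes, with a median of 0.707 and 12.8% read in all columns. Foxp1 had 45, Zfhx3 44, Sox6 42 and Sox5 35, mostly inside the genes themselves. Naive pluripotency genes were nearest to 80 (0.497%), at 7 of 34 genes, with a median of 0.999 and 27.5% read in all columns, beside 0.763 and 14.8% over all distal regions. Esrrb held 11 of the 22 regions of this list read in all columns, and without it the list had a median of 0.905 and 16.7%. Sox2, which stands on the last 2 lists, had 25, the Polycomb subunit gene Jarid2 17, Esrrb 14 and Klf5 12.

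Esrrb held the strongest group of distal regions among these genes. All 14 lay inside the gene, between chr12:86463058 and 86504835, with a median level of 2.14 and a range of 0.941 to 5.77. A read in every column was found for 11. The highest of them had a signal of 0.627, 0.448, 0.854 and 0.511 with 4HT, and 0.462, 0.408, 0.802 and 0.803 with EtOH. The treatments overlapped, and ES was lowest in both. In the model described below, its 4HT minus EtOH difference was 0.04 (SE 0.18, limma adjusted p 0.994). The 8 tested Esrrb regions had differences of -0.37 to 0.45, of which 6 were above 0, with a smallest adjusted p of 0.917.

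Distal regions nearest to Sox2, the SOX partner of OCT4, stretched from 99.3 to 502 kb beyond the gene and overlapped no part of it. A cluster of distal enhancers downstream of Sox2, the Sox2 control region, is known to drive the gene in mouse embryonic stem cells. Levels were highest close to the near end. There, the region at chr3:34761120-34761628, 109 kb from the gene, stood at 3.70, that at chr3:34756647-34757018 at 3.43, that at chr3:34757836-34758163 at 2.61 and that at chr3:34760053-34760568 at 1.80. The region at chr3:34885079-34885477, 233 kb away, stood at 2.15. The other 20 lay between 0 and 1.41, and the median of all 25 was 0.989. Klf5 and Jarid2 had no such strong member: their levels were 0.125 to 1.38 and 0.354 to 1.83, and none was tested.

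**Figure D3:**
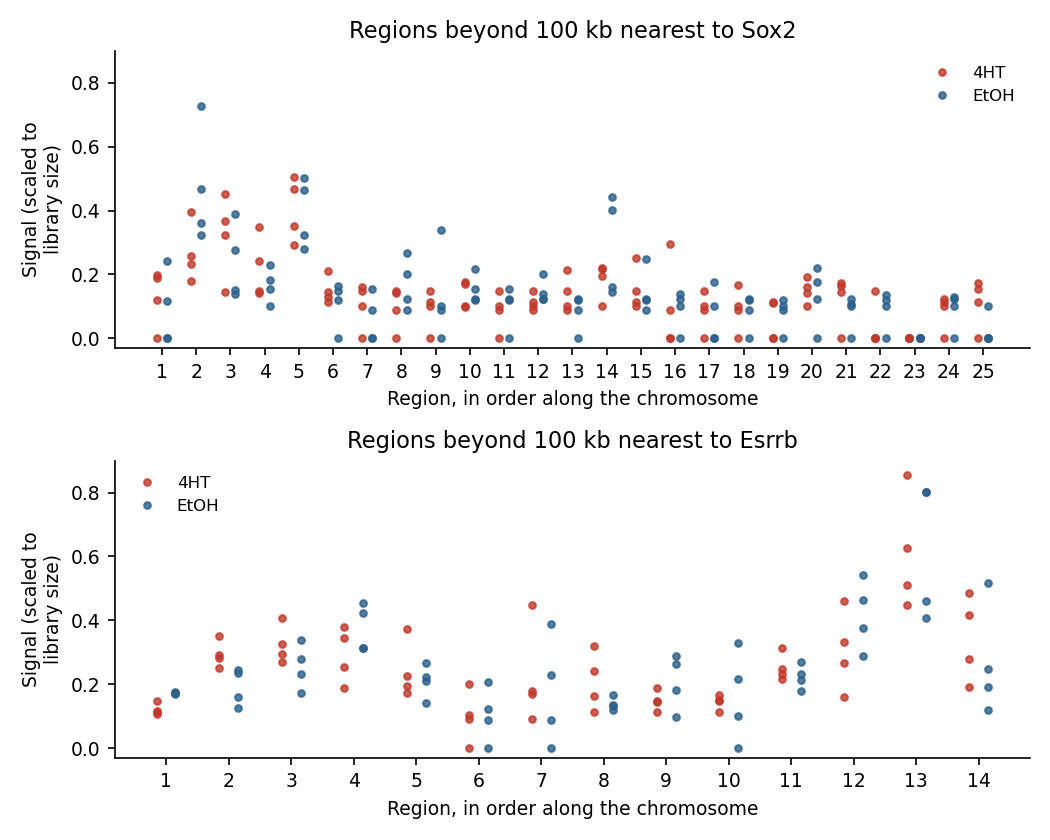
Deposited signal, scaled to library size, for the 25 distal regions nearest to Sox2 (top) and the 14 inside Esrrb (bottom), in order along the chromosome. Each point is 1 of 8 pooled columns, red for 4HT and blue for EtOH, with 0 for no read. By their mean, regions 5, 2 and 3 near Sox2 and region 13 of Esrrb stand highest.

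For tests between groups, a region needed a read in every column and a level of at least 2. This kept 420 distal regions (2.61%) of 11010 tested in all, and left out any region that lost all its reads in 1 column. Differences are on the log2(signal + 0.1) scale after centring, fitted in limma with treatment and fraction as terms, and they understate the change of weak regions. In the 4HT minus EtOH comparison, 0 of the 420 passed an adjusted p of 0.05, and of all tested regions 0% did. At an unadjusted p under 0.05 there were 25 distal regions (5.95%), 16 higher and 9 lower, against 5.42% of all tested regions. An unadjusted p under 0.05 in 5% of 420 would be 21 regions. Their smallest adjusted p was 0.403, and the median difference was 0.01 over distal regions and 0.00 over all. The median SE of these differences was 0.22.

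The lowest p among higher regions belonged to the strongest one, in Gse1. It had a signal of 0.845, 0.7001, 1.02 and 1.503 with 4HT, and 0.384, 0.515, 0.582 and 0.588 with EtOH. The lowest 4HT value was above the highest EtOH value, so the treatments did not overlap at this region, which was chosen for its low p. Its log2 difference was 0.87 (SE 0.17, limma adjusted p 0.403), with 0.92, 0.47, 0.79 and 1.29 in the 4 fractions. Next was a region at chr10:68136515-68137120 inside Arid5b, which encodes an ARID DNA-binding protein, at 0.73 (SE 0.22, limma adjusted p 0.887). It was followed by one at chr3:6100865-6101202 far from any protein-coding gene at 0.80 (SE 0.26, limma adjusted p 0.887). Both were higher in 3 of 4 fractions. With EtOH, the chr3:6100865 region stood at 1 times the 1-read value in LS and 1.03 times in ES, so near the floor.

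Among the lower regions of lowest p was 1 of the Sox2 regions above. That region at chr3:34756647-34757018 had a signal of 0.258, 0.232, 0.396 and 0.181 with 4HT and 0.361, 0.323, 0.727 and 0.468 with EtOH. It was lower with 4HT in each fraction, while the ranges overlapped. The log2 difference was -0.60 (SE 0.20, limma adjusted p 0.887), with -0.46, -0.30, -0.65 and -0.99 in the 4 fractions. The other 3 tested regions near Sox2 had differences of 0.33 at chr3:34757836, 0.06 at chr3:34761120 and -0.40 at chr3:34885079, with adjusted p of 0.934 or more in limma. A region at chr16:94759534-94760324 inside Kcnj6, a potassium channel gene, stood at -0.60 (SE 0.20), and one inside Rit2, a neuronal Ras-like GTPase gene, at -0.58 (SE 0.19). Both had a limma adjusted p of 0.887 and were lower in 4 of 4 fractions.

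**Figure D4:**
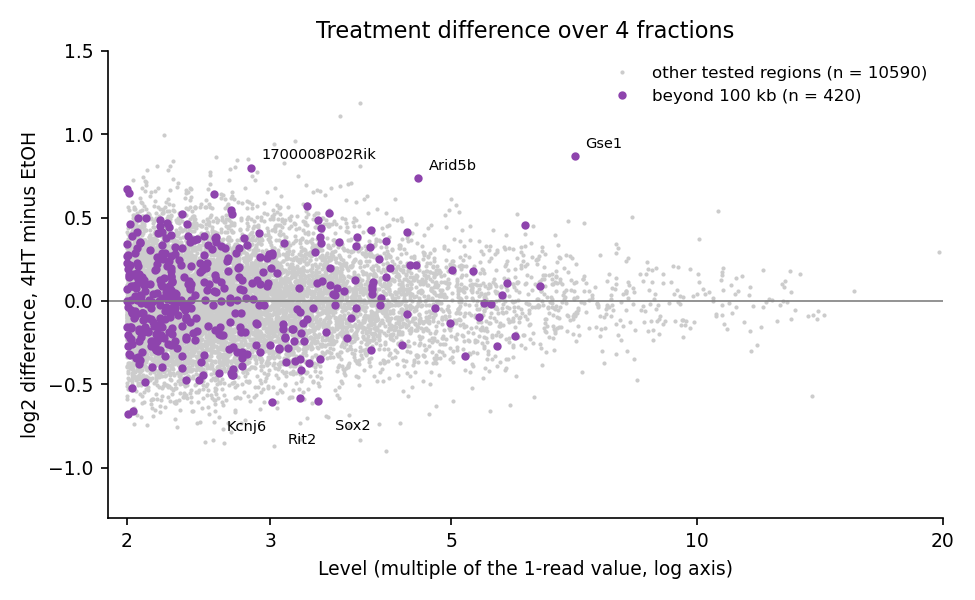
log2 difference 4HT minus EtOH over the 4 fractions against level (log axis) for all 11010 tested regions, distal ones in purple and the 6 named ones labelled by nearest gene. The 420 distal regions spread on both sides of 0 as the others do, and 9 other regions with a level above 20 are not shown.

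The share of distal regions with a read did not differ detectably between treatments. The difference 4HT minus EtOH was -1.18 points (exact two-sided permutation p 0.875, with 0.125 the smallest possible). It was -10.2, 4.17, 8.97 and -7.71 points in the 4 fractions and had the sign of the difference in depth in each. Set against regions 10 to 100 kb away in the same column, by log odds, the treatments differed by a mean of 0.0148 (SD 0.0593 over 4 fractions, exact permutation p 1).

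Fractions were compared in the same way. In ES minus G1, 0 of 420 distal regions passed the adjusted threshold, as did 0% of all. At an unadjusted p under 0.05 there were 33 (7.86%), 12 higher and 21 lower, against 7.13% of all. The median difference was -0.07 for distal regions and -0.00 for all tested regions, and 174 distal regions (41.4%) were above 0 against 49.7% of all. In LS minus G1, 0 distal regions and 0% of all passed. Here 46 (10.95%), 27 higher and 19 lower, had an unadjusted p under 0.05, against 7.28% of all, and the median was 0.11 against -0.00, with 60.95% above 0 against 49.6%. In G2 minus G1, 0 distal regions passed against 0.0182% of all, which is 2 regions. At an unadjusted p under 0.05 there were 23 (5.48%), 12 higher and 11 lower, against 5.9% of all, and the median was 0.05 against -0.00.

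Single regions with the lowest p in each fraction contrast had the same sign in both treatments, which their choice by low p favours. A region at chr9:61776494-61776625, 137 kb from the ribosomal stalk gene Rplp1, had a signal of 0.147, 0.1503, 0.338 and 0.512 with 4HT, and 0.152, 0.3001, 0.497 and 0.652 with EtOH. G1 was lowest and G2 highest in both treatments. In G1 the region stood at 1 times the 1-read value with 4HT and 1.52 times with EtOH, so near the floor. Its G2 minus G1 difference was 1.39 (SE 0.28, limma adjusted p 0.184), the lowest adjusted p of any distal region. A region at chr8:101996753-101997094, 635 kb from the cadherin gene Cdh11, had 0.674, 0.167, 0.149 and 0.309 with 4HT and 0.495, 0.329, 0.1604 and 0.542 with EtOH. Its highest values were in G1 and G2, with LS minus G1 at -1.54 (SE 0.30, limma adjusted p 0.330) and ES minus G1 at -0.97 (limma adjusted p 0.553). A region at chr9:85983655-85983813, 137 kb from Tpbg, a membrane glycoprotein gene of trophoblast, was highest in LS in both treatments, at 1.01 with 4HT and 0.627 with EtOH, against 0.539 and 0.511 in G2, the next highest. Its LS minus G1 difference was 1.25 (SE 0.27, limma adjusted p 0.412).

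The other regions named for ES minus G1 were higher near Bmper, a secreted regulator of BMP signalling (1.03), near the carbonic anhydrase gene Car2 (0.84) and inside the adenylate kinase gene Ak5 (0.83), and lower near Gm32719 (-1.50) and at chr3:6100865 (-1.12). For LS minus G1 they were higher near the oxysterol hydroxylase gene Cyp7b1 (1.09) and near Pdcd6ip, an accessory gene of the ESCRT machinery (1.05), and lower near the Slit receptor gene Robo1 (-1.02) and inside the ankyrin gene Ank3 (-0.90). For G2 minus G1 they were higher near the desmocollin gene Dsc3 (0.96) and inside the planar polarity gene Prickle2 (0.83), and lower inside Gse1 (-0.69), near Poteg (-0.88) and inside the zinc finger homeobox gene Zfhx3 (-0.85). These log2 differences did not pass the threshold: their limma adjusted p lay between 0.437 and 0.754. Some rest on values of 1 read. These were in G1 for the Cyp7b1 region in both treatments and the Dsc3 region with 4HT, and in ES for the Gm32719 region with EtOH.

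As a class, distal regions stood lowest relative to regions 10 to 100 kb away in the ES fraction. The log odds of a read, distal minus 10 to 100 kb, were -0.28, -0.50, -0.35 and -0.33 with 4HT and -0.38, -0.49, -0.35 and -0.31 with EtOH. ES was the lowest fraction in both treatments and lay outside the range of the other 6 columns. The depth of ES was 9.75 M reads in 4HT and 8.38 M in EtOH, neither the highest nor the lowest of the 4 fractions in either treatment. An effect of depth was not tested. ES minus the mean of the others was -0.160 (odds ratio 0.852; exact permutation of fraction labels within treatments, p 0.0625, the smallest this comparison allows; adjusted p 0.139 over 4 comparisons), so the design cannot take it past 0.05. ES minus G1 was -0.161 (exact permutation p 0.0694, adjusted p 0.139), LS minus G1 -0.017 and G2 minus G1 0.014 (exact permutation p 0.847 and 0.889).

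**Figure D5:**
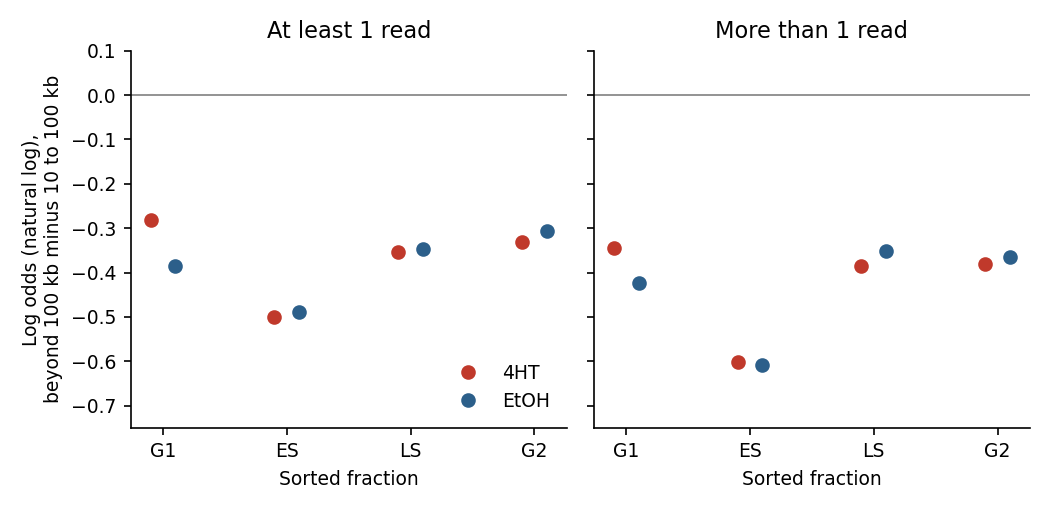
Natural log odds of a read (left) and of more than 1 read (right) in distal regions minus those in regions 10 to 100 kb from a window, by sorted fraction, 1 point per pooled column, red for 4HT and blue for EtOH. Both ES points lie below the other 6 in each panel, near -0.50 on the left and near -0.60 on the right.

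The position of ES was the same under other measures, which rest on the same reads. With more than 1 read, ES stood at -0.60 in 4HT and -0.61 in EtOH, and the other columns between -0.42 and -0.35, so ES minus the others was -0.230 (exact permutation p 0.0625, adjusted p 0.194). Among tested regions the median log2 signal, distal minus 10 to 100 kb, was -0.11 and -0.10 in the ES columns and between -0.01 and 0.05 elsewhere, or -0.12 for ES minus the others (exact permutation p 0.0625, adjusted p 0.250). Distal regions held 8.495% and 8.45% of the summed signal in ES, and 9.10 to 9.31% in the other 6 columns. ES was lowest of the 4 fractions in both treatments at 100 to 200, at 200 to 500 and beyond 500 kb, and both in protein-coding genes and in no gene. ES minus the others was negative in both treatments on 18 of 19 chromosomes, with a chromosome median of -0.155 (-0.228 to -0.061), and ES was the lowest fraction in both treatments on 11.

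By both measures the values for regions closer to windows were nearer 0, and the difference between classes was not tested. For the regions at 1 to 10 kb, set against the same 10 to 100 kb regions, ES minus the others was 0.046 (exact permutation p 0.125), and for those within 1000 bp it was -0.011 (exact permutation p 0.75). With more than 1 read these were 0.032 and -0.049 (exact permutation p 0.125 each), and in the latter set ES was lowest in both treatments, as in distal regions. By single stretches, ES was compared with the other fractions by the log odds of a read in the stretch alone. These were not set against regions 10 to 100 kb away, so depth was not set aside. ES was deeper than G1 and G2 in 4HT (9.75 against 6.78 and 8.87 M reads). In EtOH it was less deep than both (8.38 against 9.96 and 11.2 M reads). LS, at 11.1 M in 4HT and 8.17 M in EtOH, went the other way in each. The stretches with at least 20 distal regions numbered 174 and held 4815 (29.9%) of them. ES was below the mean of the other fractions in 98 in 4HT and in 139 in EtOH. It was below in both treatments in 79 and above in both in 16. An effect of depth on these counts was not tested. The size of the difference in 4HT did not go with that in EtOH (Pearson r -0.053 across the 174 stretches, which share libraries, as a description). The lowest was a stretch through Pard3 and Nrp1 with 35 distal regions, in which 57.1% had a read in ES in 4HT and 68.6% in EtOH, against 74.3 to 94.3% in the other columns.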

How the data were processed

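The deposited table holds coverage signal at accessible regions in 8 pooled columns. The submitters' processing notes name mm10 as the build, and featureCounts and DESeq2 as tools without saying what each did. How reads were aligned, regions called and libraries pooled is not given in the sources used here. From the values, the signal was read as coverage scaled to library size and averaged over bases that hold a read, with empty cells as no read, so a weak region cannot fall below 1 read and losses are understated. A value counted as 1 read within a factor of 1.0001.

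Distances run between centres (38053 distinct windows of 5000 bp). Regions with a read in all columns and a level of at least 2 were fitted in limma 3.58.1 (R 4.3.3): log2(signal + 0.1), cyclic loess, treatment and fraction terms, 3 residual degrees of freedom, intensity trend, robust moderation, Benjamini-Hochberg adjustment over all tested regions at 0.05. On simulated data the fit recovered 46 of 100 regions changed by 1 log2 unit between treatments. It recovered 90 of 100 changed by 2, with 3 false calls. The changes were added on the log2(signal + 0.1) scale to regions drawn from all 11010 tested, without the floor at 1 read. Recovery among distal regions alone was not tested. Shares and log odds were tested by exact permutation over columns. Named were the 10 highest, the 5 farthest, the 3 of lowest p per contrast and direction, the 10 fullest stretches and up to 4 genes per list. Some of the 10 highest are not reported here. The members and lists were chosen with earlier results of these data known. Comparisons by promoter, gene body, distance bin, chromosome and stretch, and of median log2 signal, were added after seeing the data, as were the other regions named beside Esrrb and Sox2 and the list without Esrrb. Alternatives were other pseudocounts, scalings, level minimums, distances, widths, positions and omitted fractions. Motifs and base composition of the regions themselves were not analysed here; RefSeq promoters were searched instead. The planned tests on separate libraries could not be applied to pooled columns.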

Additional observations from a re-analysis of the deposited data

How the results depend on the processing

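Of the values that answer a comparison, 111 recomputed under an alternative kept their direction and their side of the threshold, as did all 220 recomputed values of single named regions. For the 4HT minus EtOH share and ES minus the others the side was fixed in advance. The smallest p they allow with all 4 fractions is 0.125 and 0.0625. Many of the other values are counts of called regions that were 0 in both forms. Measured from RefSeq starts in place of windows, 20118 regions were beyond 100000 bp, 8965 of them among the 15469 distal regions on chromosomes with such starts, and 1 of them was called in G2 minus G1 (limma adjusted p 3.7e-06), where 0 were before. This set holds other regions. LS minus G1 in log odds became 0.016 with more than 1 read (exact permutation p 0.847), and the 4HT minus EtOH share became 1.81 points without the G1 fraction and 0.994 without G2 (exact permutation p 0.75 and 1); the cause was not tested, and these values were not called in either form. The start-overlap difference of 1.66 points among regions over 400 bp (exact permutation p 0.133) compares fewer regions, with median widths of 706 and 549 bp. ES minus the others in log odds lay between -0.142 and -0.230 under other distances, widths, positions, read criteria and omitted fractions, and between -0.132 and -0.291 in the subsets by distance and gene body. No distal region was called under other pseudocounts, scalings, level minimums or omitted fractions. A criterion of more than 1 read gives no level, and the contrast with 1 treatment left out has no residual degrees of freedom, so neither was run. No paired analysis was possible because the columns carry no replicate numbers. Depth limits single regions most: 70.5% had a level of at most 1.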

Other observations

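The same distance rule applied to the X chromosome gave 124 regions, with a median level of 0.582 against 0.763 on the autosomes, and 7.26% had a read in every column against 14.8%. They are not part of the counts above, and the karyotype of the line is not given in the sources used here.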
